A study of Mus musculus with 15 samples.

Results

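Open chromatin was compared between islets that had lost Arid1a in β cells and control islets, 6 days after partial pancreatectomy (PPx, removal of part of the pancreas). Every peak of the authors' table for this comparison was taken, with repeated rows for 1 position counted once. This gave 13111 peaks of 601 bp, of 38285 distinct positions over the 4 comparisons of the series. The effect at a peak was the group level in knockout islets minus the group level in control islets, on the log2 scale. Each group held islets of 4 male mice aged 3 months, and the series also held 7 unoperated mice, 4 control and 3 knockout. All mice were Arid1aFl/Fl and carried MIP-rtTA, a doxycycline-dependent activator under an insulin promoter. Knockout mice (βKO) carried TRE-Cre in addition, so Cre was induced only in cells that made the activator. Both genotypes drank doxycycline at 1 g/L for 2 weeks, and PPx was done 1 week after it was withdrawn. ATAC-seq, in which Tn5 transposase inserts adapters into accessible DNA, was run on 40000 dispersed islet cells per mouse, at 37 °C for 30 min, with single reads of 75 bp. Whole islets also hold α, δ and other cells in which Cre was not aimed, and fewer cells of a type cannot be told apart from less open chromatin per cell.

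ARID1A is the large DNA-binding subunit of the canonical BAF form of SWI/SNF, an ATP-driven complex that slides and evicts nucleosomes. BAF is best known for keeping enhancers open, while many CpG-rich promoters stay nucleosome-free through other factors as well. In islets, β cells rarely divide in adults, and removal of pancreatic tissue is a standard way to press the remaining β cells to replicate. The comparison asks how chromatin differs when that stimulus is met without Arid1a.

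The promoters with the largest called gains are shown first, as the 250 bases before the RefSeq transcription start (GRCm38.p6), because promoters held most of the called gains. Capitals mark the GC box, GGGCGG or its complement CCGCCC, the core of SP/KLF binding sites.
Pttg1 (securin, which restrains separation of sister chromatids), chr11:43425982-43426231, minus strand: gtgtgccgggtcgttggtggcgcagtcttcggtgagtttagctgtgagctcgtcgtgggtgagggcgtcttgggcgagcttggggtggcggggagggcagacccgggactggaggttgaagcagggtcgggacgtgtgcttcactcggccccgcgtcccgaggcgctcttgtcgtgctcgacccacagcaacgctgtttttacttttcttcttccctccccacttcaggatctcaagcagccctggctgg
Irf2bp1 (a transcriptional corepressor), chr7:19003808-19004057, plus strand: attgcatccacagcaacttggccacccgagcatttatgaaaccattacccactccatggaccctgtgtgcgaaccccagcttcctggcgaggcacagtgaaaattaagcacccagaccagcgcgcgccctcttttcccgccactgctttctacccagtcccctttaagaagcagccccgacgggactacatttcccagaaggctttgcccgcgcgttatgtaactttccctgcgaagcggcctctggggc
Dcun1d1 (a co-factor that helps attach NEDD8 to cullins), chr3:35932967-35933216, minus strand: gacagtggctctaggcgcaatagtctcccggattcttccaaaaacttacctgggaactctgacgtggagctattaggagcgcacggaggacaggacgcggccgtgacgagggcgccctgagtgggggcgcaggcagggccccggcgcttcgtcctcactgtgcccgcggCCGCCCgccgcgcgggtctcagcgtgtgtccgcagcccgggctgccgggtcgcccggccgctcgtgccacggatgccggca
The Pttg1 peak stood at 2.20 in control and 4.38 in βKO islets. The Irf2bp1 peak stood at 2.52 and 4.46, and the Dcun1d1 peak at 2.50 and 4.20. The differences were 2.18, 1.94 and 1.70. These stretches held 20, 14 and 31 CpG dinucleotides at a G+C content of 63.6%, 57.2% and 70.4%, and only that of Dcun1d1 held a GC box. The Dcun1d1 peak ended at position 35933043, so most of its stretch and part of the GC box lie outside the peak.

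The promoter with the largest difference in the other direction is shown for contrast, although it was not called.
Pgk1 (phosphoglycerate kinase, a glycolytic enzyme), chrX:106186850-106187099, plus strand: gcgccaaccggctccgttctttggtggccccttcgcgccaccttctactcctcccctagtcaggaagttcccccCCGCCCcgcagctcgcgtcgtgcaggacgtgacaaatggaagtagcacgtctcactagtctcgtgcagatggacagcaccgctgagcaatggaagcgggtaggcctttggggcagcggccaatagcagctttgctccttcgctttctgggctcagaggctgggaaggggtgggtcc
Its peak stood at 8.76 in control and 6.68 in βKO islets, a difference of -2.08, and was called in 4 libraries of each genotype. The authors' deposited table gives it a p-value of 1 all the same, and why was not tested.

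Accessibility was higher in βKO islets at most peaks. The median level was 3.53 in control and 4.04 in βKO islets, and the median difference was 0.61 on the log2 scale, or 1.53-fold, with quartiles of 0.32 and 0.84. The difference was above 0 at 90.3% of peaks. At an FDR under 0.05 in the authors' deposited table, 9.97% of all peaks were called, 9.88% higher and 0.0839% lower in βKO islets, which is 1296 and 11 peaks. The called gains had a median of 1.05 and ran from 0.79 to 3.64, and the called losses had a median of -1.19. The deposited tables hold group values only, so no SD between mice can be given and overlap between single libraries was not seen. The error available is the standard error implied by the authors' difference and p-value, whose median was 0.401. The authors' deposited table lists FDR 0.0498 for the called peak nearest the threshold, at the Tmem9 promoter (3.38 and 4.56), and 0.05 for the nearest one outside, at the Wdr92 promoter (4.89 and 5.80).

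**Figure D1:**
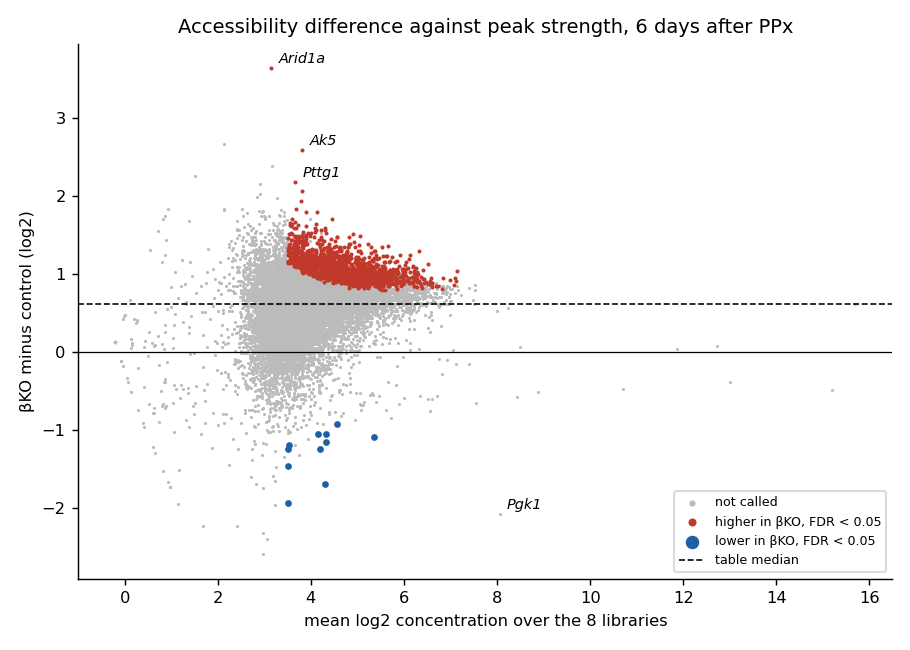
Each point is 1 of 13111 peaks, with its mean log2 concentration over the 8 libraries on the x axis and βKO minus control on the y axis. Red points were called higher and blue points lower at FDR < 0.05, and the dashed line is the table median of 0.61, around which the mass of peaks lies.

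Detection of peaks was also uneven between genotypes, and the difference varied with it. Of the 13111 peaks, 3724 were called in no control library and 84 in no βKO library, while 2423 and 4897 were called in all 4. The median difference was 0.65 at the 5536 peaks called in 2 or more libraries of each genotype and 0.64 at the 6507 that reached 2 libraries in βKO islets alone. At the 2268 peaks called in all 8 libraries it was 0.73, with 480 called higher and 3 lower. Only 239 peaks reached 2 libraries in control islets alone. These had a median of -0.38. At finer steps the median was 0.97 at the 222 peaks called in 0 control and 4 βKO libraries, 0.08 at the 829 called in 1 of each, 0.18 at the 388 called in 2 of each and -1.24 at the 3 called in 4 control and 0 βKO libraries. The number of libraries called is itself a readout of the same reads. Of the 1296 called gains, 209 had been called in no control library and 1095 in all 4 βKO libraries.

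The lowest values of the groups differed as well. At 152 peaks both groups stood at their lowest listed value, -0.26 in control and -0.13 in βKO islets, a difference of 0.13. Of these, 60 were on chromosome Y, which held 76 peaks in all. Set against 0.13, the table median was 0.48. Set against the median of the 1000 strongest peaks, it was -0.16. A difference from 0 therefore depends on the scaling, and values below are given both as deposited and relative to the table median of 0.61.

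Gains were largest at promoters. The 7650 peaks within 1 kb of a start had a median difference of 0.72, which is 0.11 above the table median, and 1137 were called higher and 0 lower. These promoter peaks made up 58.3% of the table and 87.7% of the called gains. The 3025 distal intergenic peaks had a median of 0.39, or -0.22 relative to the table median, with 96 called higher and 9 lower. The 1232 peaks in introns after the first had 0.37 (-0.24 relative) with 25 called higher, and the 438 peaks in first introns had 0.38 (-0.23 relative) with 9. Promoter peaks further out lay between, with 0.49 at 1 to 2 kb (206 peaks, 9 higher) and 0.46 at 2 to 3 kb (194 peaks, 8 higher). Exons other than the first held 204 peaks with a median of 0.38, of which 6 were called higher and 1 lower. The smaller classes, 5′ UTRs (13 peaks), 3′ UTRs (84) and regions just downstream of genes (65), had medians of 0.60, 0.36 and 0.40, and 0, 3 and 3 called gains. Among peaks called in 2 or more libraries of each genotype these medians were 0.07 (5 peaks), 0.10 (17) and 0.16 (15). As a share of each class, 14.9% of promoter peaks were called in either direction against 3.47% of distal and 2.03% of later intron peaks, beside 9.97% in the table. An FDR below 1 in the authors' deposited table was given to 5891 of these promoter peaks, 1464 distal and 577 later intron peaks. Of those peaks, 19.3%, 7.17% and 4.33% were called, beside 15.2% in the table.

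**Figure D2:**
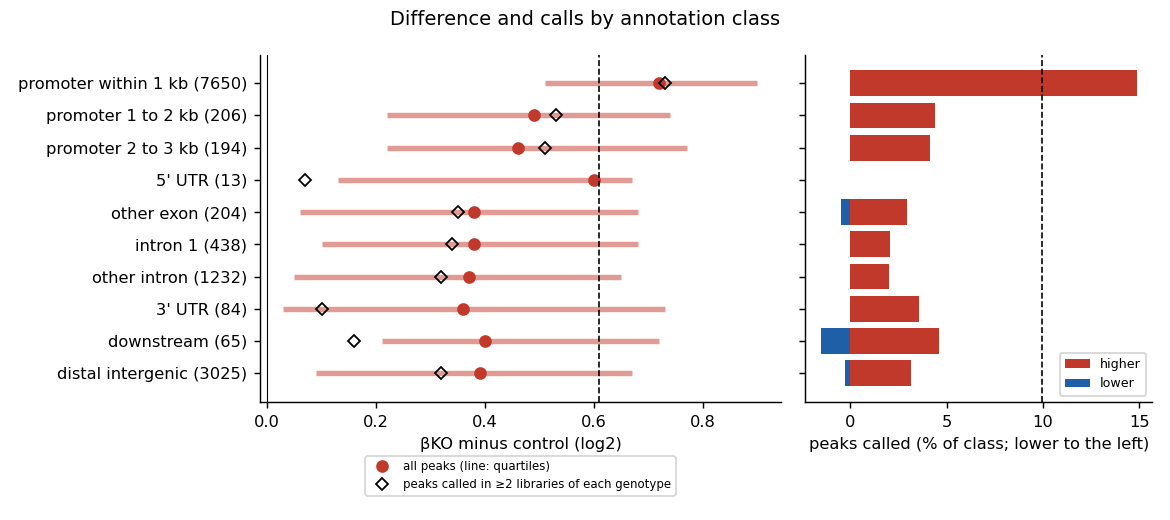
Left, the median difference between βKO and control (log2) for each annotation class, with quartiles as lines and the number of peaks in brackets; open diamonds use only peaks called in 2 or more libraries of each genotype, and the dashed line is the table median. Right, the percent of each class called higher (red) or lower (blue, to the left), with the 9.97% called in the whole table as a dashed line; promoters within 1 kb lie past both lines.

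The same order held by distance. RefSeq starts gave a distance for 12663 peaks, measured from the peak's centre. The median was 0.72 up to 100 bp and from 100 to 300 bp, 0.69 to 1000 bp, 0.55 to 3000 bp, 0.48 to 10000 bp and 0.44 at all greater distances. The share called higher was 14.9%, 16.4%, 12.9%, 6.47% and 5.22% in the first 5 of these bins. Beyond 10000 bp it was 4.51% up to 100000 bp and 4.79% above that. The start table does not list every start, so some distances are too long.

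Promoter peaks were stronger than the others, and stronger peaks were called more often. Peaks were therefore compared in 10 bins of mean concentration, each with the same number of peaks. In the weakest bin the median was 0.55 at promoters within 1 kb and 0.30 at peaks beyond 3 kb, and in the strongest it was 0.79 and 0.57. Promoters had the higher median in each of the 10 bins. The share of promoter peaks called higher was larger in each bin than in the one before from bin 4 on, and reached 28.9% in the strongest. That of other peaks had no such steady order, with 15.1% in bin 9 and 11.7% in bin 10. In the weakest 3 bins only 1 peak was called, in Arid1a, because the authors' deposited table gives FDR 1 to the rest of them. In all, 4534 peaks had an FDR of 1, and their median difference was 0.45 against 0.67 at the other 8577.

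**Figure D3:**
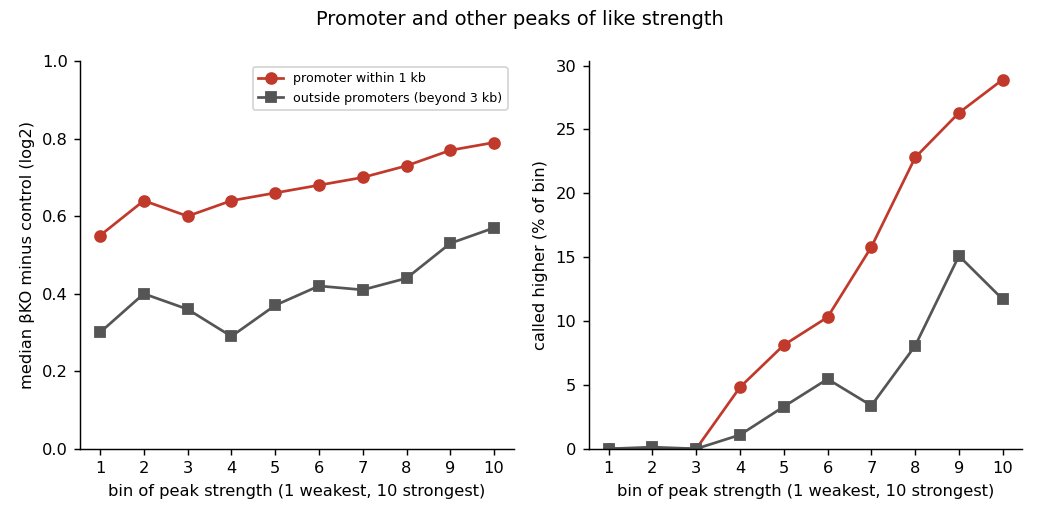
Median difference (left, log2) and percent of peaks called higher in βKO (right) in each of 10 bins of mean concentration, for promoter peaks within 1 kb (red circles) and peaks beyond 3 kb (grey squares). The promoter line is the upper one in every bin on the left, and both shares are near 0 in the 3 weakest bins.

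The contrast was also seen inside single genes. In 747 genes with both a promoter peak and a peak within the gene body, the strongest promoter peak gained more than the strongest inner peak in 568, or 76%, with medians of 0.74 and 0.40. Where both peaks were within 0.5 in concentration, the count was 182 of 247 genes, or 73.7%. For a promoter peak and a distal peak given to the same gene, it was 500 of 663 genes, or 75.4%, and 123 of 173 at like strength. The peaks of a gene share their libraries, so these are counts, with no test.

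Arid1a itself had 1 peak, and it showed the largest difference of all peaks. The peak lay in exon 9 of 20 (chr4:133692980-133693580, mm10), at 0.40 in control and 4.04 in βKO islets, and was called in 0 control and 3 βKO libraries. The difference of 3.64 had an implied standard error of 0.69, and the authors' deposited table lists FDR 0.00201 for it. In the unoperated mice, which are other animals, the peak stood at 1.21 in control and 5.49 in βKO islets. So the columns labelled βKO were the higher ones at this locus at both times. The sources used here do not say which exons are floxed, so the peak does not show that the gene was deleted.

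Ak5, an adenylate kinase found mainly in neural tissue, had the smallest FDR of the authors' deposited table, 0.000605. Its peak in intron 5 stood at 2.01 in control and 4.60 in βKO islets, a difference of 2.59. After Arid1a came the Pttg1 promoter described above, for which the authors' deposited table lists FDR 0.00701. The promoter of Rfxap, a subunit of the RFX complex that drives MHC class II genes, stood at 3.30 and 4.89 (FDR 0.0118, the authors' deposited table). The promoter of 3110053B16Rik stood at 3.65 and 5.13. None of the promoters in this group of 5 was as far from the table median as Arid1a and Ak5. The largest called gains of other classes included the 3′ UTR of St3gal2, a sialyltransferase, at 2.43 and 4.50. Inside genes, intron 5 of Syt1, the calcium sensor of synaptic vesicle release, stood at 2.51 and 4.14. The promoter region of Ppm1l, a phosphatase, stood at 2.74 and 4.53 between 2 and 3 kb from the start. The strongest of these peaks was upstream of Rnase4, a secreted ribonuclease, at 4.57 and 5.86. Apart from Rnase4 and 3110053B16Rik, these peaks had a control level below the table's median control level of 3.53.

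**Figure D4:**
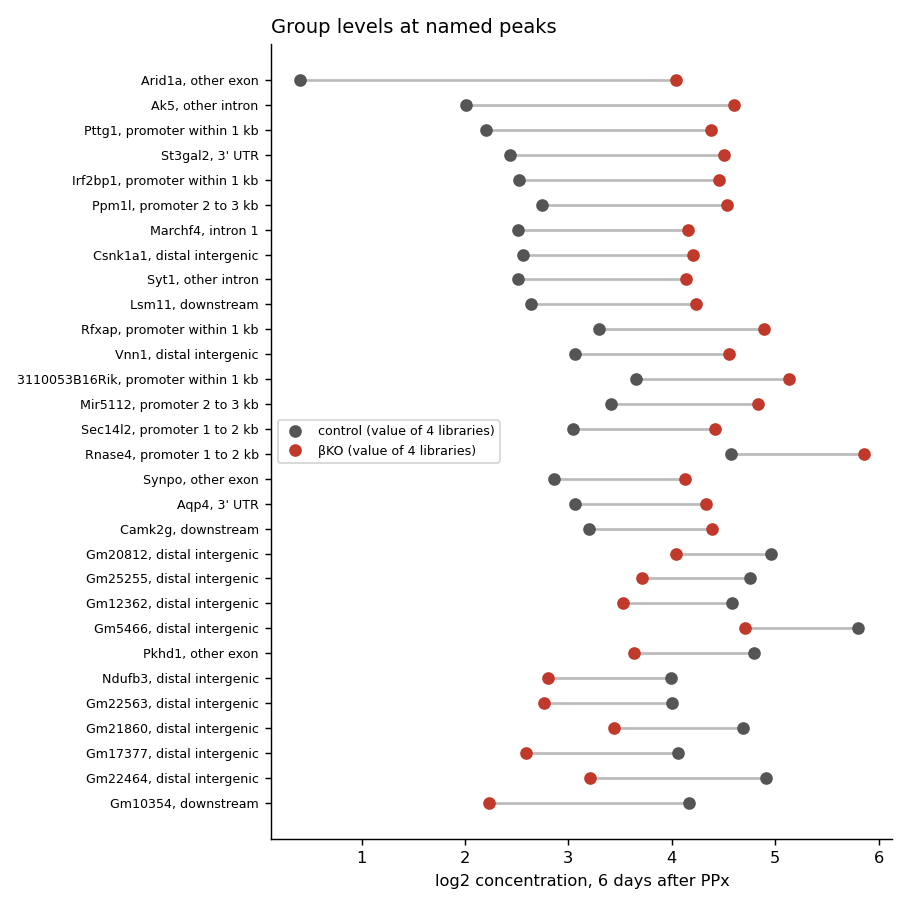
Log2 concentration of control (grey) and βKO (red) islets 6 days after PPx, each point the deposited value of a group of 4 libraries, at the peaks with the smallest FDR, most of the largest called gains per annotation class and all 11 called losses. Arid1a has the longest line, from 0.40 to 4.04, and the 11 lowest rows run the other way.

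The 11 called losses were mostly distal and mostly near genes known only by predicted names. There were 9 distal intergenic peaks, 1 downstream of a gene and 1 in an exon, and 9 of the 11 were assigned to predicted (Gm) genes, which held 2570 of all 13111 peaks. With a Benjamini-Hochberg adjustment over all peaks only 5 of the 11 kept their call, those of Gm22464, Gm10354, Gm5466, Gm21860 and Pkhd1. The exception inside a gene was exon 61 of Pkhd1, the fibrocystin gene of cilia in duct and kidney epithelium, at 4.79 in control and 3.63 in βKO islets. The authors' deposited table lists FDR 0.0345 for it. The distal peak assigned to Ndufb3, a subunit of respiratory complex I, stood at 3.99 and 2.80. It was called in 4 control and 0 βKO libraries. The peaks of Gm22464 on chromosome X (4.91 and 3.21) and Gm10354 on chromosome 5 (4.17 and 2.23) had the largest losses, -1.70 and -1.94. Gm21860 and Gm20812, both on chromosome Y, stood at 4.69 and 3.44, and at 4.96 and 4.04.

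Since the authors' test asks for a difference from 0, each peak was also set against the table median of 0.61 by an approximate normal test with the implied standard error. This called 0.0153% of 13110 peaks higher and 0.374% lower, which is 2 and 49 peaks, with Pgk1 left out. The higher ones were in Arid1a, 3.03 above the table median with an implied standard error of 0.69, and in Ak5, 1.98 above with 0.48. Of the 49, 30 were distal intergenic and 9 lay in later introns, against 3 at promoters within 1 kb, and their median difference was -0.94 as deposited. They included all 11 called losses. The others included peaks of Jarid2, a partner of Polycomb repressive complex 2 (an intron peak at 5.41 and 4.73), Lifr, a cytokine receptor (a 3′ UTR peak at 3.73 and 2.46), and Sema3a, a guidance cue (an intron peak at 4.73 and 3.96). These 3 were chosen after their values were seen. No gain at a promoter stood apart from the general one by this test.

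The strongest bin of peaks had the highest median of the 10 bins, 0.77, but several of the 10 strongest peaks had differences near or below 0. The Chl1 exon 5 peak stood at 12.69 in control and 12.76 in βKO islets, and the distal Pak3 peak at 11.85 and 11.89. The promoter of Gm10222 stood at 15.36 and 15.97, a difference equal to the table median. Those of Gm10800 (15.42 and 14.93) and Gm10801 (13.19 and 12.81) had a lower value in βKO islets, without a call. Of the 10 strongest, only Hjurp, the chaperone that loads centromeric histone, and Gm10222 differed by more than 0.5 upwards, and Hjurp stood at 7.93 and 8.49. At ordinary promoters close to the table median, the levels were 6.13 and 6.74 at Uba6, a ubiquitin-activating enzyme, and 6.46 and 7.07 at Hdgfl2.

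Genes of β-cell identity lay on both sides of the table median. Among transcription factors of the β cell, 19 peaks at 10 genes had a median of 0.65, which is 0.04 above the table median. Of all peaks 9.88% were called higher, and of promoter peaks, the class of 9 of the 19, 14.9%. In this list 3 peaks (15.8%) were called higher. These were the promoters of Foxa2 (3.60 and 4.75), a pioneer factor of endoderm, Nkx6-1 (3.81 and 4.87), which maintains β-cell identity, and Rfx6 (4.04 and 5.05), an islet developmental factor. A peak in an intron of St18 had the lowest difference, at 3.34 and 2.54, and was not called. Pdx1 and Neurod1 had no peak in the table. Of 12 β-cell marker genes 7 had a peak. Besides Ins1, described below, and Nkx6-1, their strongest peaks differed by less than the table median: Mafa stood at 3.43 and 3.81, Slc30a8 at 4.49 and 4.34, Pcsk1 at 4.99 and 5.40, G6pc2 at 4.06 and 4.62, and Ucn3, a marker of mature β cells, at 3.38 and 3.43. The 5 without a peak included Ins2, Iapp and Slc2a2, which are defining genes of the cell. Peaks were also listed at 3 of 5 α-cell and 1 of 2 δ-cell genes.

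Insulin granule and secretion genes had 41 peaks at 22 genes, with a median of 0.54, or -0.07 relative to the table median. Against the median of each peak's own class the list stood at 0.02. Of the 41, 3 (7.32%) were called higher, beside 9.88% of all peaks and 14.9% of promoter peaks, the class of 15 of the 41. The Ins1 promoter, of 1 of the 2 mouse insulin genes, stood at 4.13 in control and 5.62 in βKO islets (FDR 0.0154, the authors' deposited table). Promoters of the granule proteins Scg5 (3.94 and 4.97) and Scg3 (4.52 and 5.46) were the others. Among genes of the other endocrine cells, 2 of 12 peaks were called higher, a distal peak of Sst, the δ-cell hormone (4.20 and 5.32), and an exon of Mboat4, which acylates ghrelin (3.21 and 4.23). The peak of Gcg, the α-cell hormone, stood at 3.80 and 3.70. Genes that β cells normally silence had 7 peaks at 7 genes with a median of 0.49 and none called.

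Signalling by EGF and its relatives passes from ligands through ERBB receptors and RAS to ERK, with feedback inhibitors. This list had 44 peaks at 27 genes and a median of 0.69 (0.08 above the table median). Its called gains numbered 3, or 6.82%, beside 9.88% of all peaks and 14.9% of promoter peaks, the class of 25 of the 44. Against the median of each peak's own class the list stood at 0.06. Among ligands, the promoter of Btc (betacellulin) was called, at 4.29 in control and 5.19 in βKO islets. The promoters of Egf (3.02 and 3.95) and Areg (3.87 and 4.58) were higher in value and not called, and that of Hbegf stood at 3.56 and 3.49. Among receptors, the Egfr promoter stood at 3.96 and 4.37, that of Erbb3 at 2.90 and 3.64, and the first intron of Erbb4 at 4.38 and 4.19, none called. Downstream, the promoter of Sos1, the exchange factor that loads RAS, was called at 3.25 and 4.26. Among inhibitors, that of Spry2, a feedback inhibitor of the pathway, was called at 4.94 and 6.00, while Spry1 (2.29 and 3.87) and Spred1 (2.62 and 4.03) had larger differences at weaker peaks without a call.

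Other signalling lists had medians on either side of the table median. Their called shares are to be read beside 9.88% of all peaks and 14.9% of promoter peaks called higher. Insulin, IGF and PI3K genes had 26 peaks with a median of 0.80 (0.20 above the table median). The 4 called gains of these genes (15.4%) included Pik3ca, the catalytic subunit (3.93 and 5.10), and Rictor of mTOR complex 2 (3.47 and 4.49). Wnt genes had 16 peaks, 11 of them at promoters, with a median of 0.80 (0.18 above). Of the 16, 5 were called, 31.2% against 9.97% in the table. These included the promoters of the receptor Fzd5 (4.39 and 5.52) and the kinase Gsk3a (4.71 and 5.90), with a distal peak of the kinase Csnk1a1 (2.56 and 4.20). TGF-β, activin and BMP genes had 22 peaks with 6 called gains, or 27.3%. Among them were the receptors Tgfbr1 (4.12 and 5.20) and Acvr1c (an intron peak at 5.09 and 6.14) and the co-repressor Skil (4.11 and 5.20). The median of that list, 0.54, was nonetheless -0.07 relative to the table median, and a distal Smad1 peak stood at 3.22 and 2.79. Notch genes had 23 peaks, a median of 0.71 and 2 called gains (8.7%), Hes6 (3.49 and 4.52) and the co-activator Maml1 (3.58 and 4.66).

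Cell cycle genes had 39 peaks at 26 genes with a median of 0.66 (0.05 above the table median), and 7 were called higher, or 17.9%, beside 9.97% of all peaks and 14.9% of promoter peaks, the class of 26 of the 39. Against the median of each peak's own class the list stood at 0.03. Both drivers and brakes were among them. On the driving side was Ccne2 (4.57 and 5.50), a cyclin of S-phase entry. On the braking side was Cdkn2c (3.80 and 4.94), which encodes an inhibitor of CDK4 and CDK6. Pttg1 had the largest gain of the list. Ccna2 (4.90 and 5.88) and the inhibitor genes Cdkn2b (4.43 and 5.44) and Cdkn1b (4.24 and 5.13) were also called, as was the inhibitor gene Cdkn2d (5.16 and 6.10). The proliferation marker Mki67 stood at 2.90 and 3.56 at its promoter, without a call.

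Genes for chromatin remodellers and histone modifiers had medians above the table median. The SWI/SNF subunits had 16 peaks at 13 genes, all above 0, with a median of 0.70 (0.10 above the table median). Of these peaks 11 were at promoters, and against the median of each peak's own class the list stood at 0.02. Only the Arid1a peak was called. The promoter of Smarca4, the BRG1 motor, stood at 3.50 and 4.07, that of Smarca2, the BRM motor, at 3.83 and 4.53, and the strongest intron peak of Arid1b, the paralogue of Arid1a, at 3.55 and 4.18. The list of other remodellers, which also holds histone-modifying enzymes, had 31 peaks at 23 genes. Its median, 0.81, was the highest of the lists of 10 or more peaks. Against the median of each peak's own class it stood at 0.20. The called gains numbered 5, or 16.1%, beside 9.88% of all peaks and 14.9% of promoter peaks. They included Chd1 (4.64 and 5.72), Smarca5, the ISWI motor (4.73 and 5.68), and Gatad2a of the NuRD complex (5.36 and 6.32).

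Stress and early-response genes had few peaks, and their shares of called gains are set beside 9.88% in the table and 14.9% of promoter peaks. The median concentration was 4.51 at immediate early and 4.26 at unfolded protein response peaks, against 3.80 over all peaks. Of all peaks in the strength bins that hold these values, 19.2% and 12.1% were called. AP-1 and immediate early genes had 34 peaks with a median of 0.70 and 6 called gains, or 17.6%. They included Dusp4, a MAP kinase phosphatase (3.36 and 4.80), Klf6 (5.67 and 6.64) and a distal peak of the antiproliferative gene Btg2 (4.23 and 5.45). A distal peak assigned to Myc stood at 3.71 in control and 3.09 in βKO islets, and the Myc promoter at 4.72 and 5.31, neither called. The unfolded protein response had 25 peaks with a median of 0.77 and 5 called gains, or 20%. Hspa5, the chaperone BiP, stood at 4.73 and 5.78, and a distal peak of Eif2ak3, the PERK kinase, at 3.70 and 4.98.

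Marker genes of other pancreatic cell types had few peaks, and their part in the gains was not tested. Endothelial markers had 9 peaks at 6 of 15 genes, with a median of 0.26 (-0.35 relative to the table median) and 0 called. An intron of Flt1 stood at 4.22 and 4.10. Duct markers had 13 peaks at 6 of 14 genes with a median of 0.25 (-0.36 relative). These were split between a gain at a distal Ambp peak (3.15 and 4.34) and the Pkhd1 loss above. Stromal markers had 5 peaks with a median of 0.45, and macrophage and leukocyte markers had 4 with 0.83. Acinar markers had 2 with 0.62 and neural markers 2 with 0.63. None of these was called. Of all peaks 9.97% were called in either direction, beside 3.47% of distal and 2.03% of later intron peaks. Only 1 of the 9 endothelial peaks was at a promoter. At such shares, sets this small can hold no called peak, so the lack of calls does not set these markers apart. Against the median of each peak's own class, endothelial markers stood at -0.32 and duct markers at -0.18. With only the strongest peak of each gene, their medians were 0.07 and 0.44.

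Most large gene families with housekeeping promoters had medians above the table median. The families of ion channels and of cadherins, contactins and neurexins had medians below it. Cytosolic ribosomal proteins had 49 peaks, all above 0, with a median of 0.71 and 10 called, or 20.4%, beside 9.97% of all peaks and 14.9% of promoter peaks, the class of 48 of the 49. The promoter of Rpl37a stood at 3.15 and 4.63. Mitochondrial ribosomal proteins had 9 of 43 called with a median of 0.76, with Mrps28 at 5.16 and 6.40. Splicing factors had 8 of 39 called, translation initiation factors 7 of 38, and the proteasome 4 of 25, where Psmd1 stood at 3.09 and 4.68. Oxidative phosphorylation had 7 called gains and the Ndufb3 loss among 52 peaks, with a median of 0.60. Zinc finger proteins named Zfp, most of them transcriptional repressors, had 43 of 269 called (16%) with a median of 0.73. By contrast the family named voltage-gated ion channels had 1 of 71 called, with a median of 0.35 (-0.26 relative to the table median). This family was drawn by gene symbol and also holds channels of other kinds, among them Kcnk12. The Kcnk12 promoter (3.61 and 4.86) was its called peak. Cadherins, contactins and neurexins had 3 of 103, with 0.36 (-0.25 relative). Solute carriers lay between, with 16 of 182 and 0.56. These families differ in how many of their peaks are promoters, and most of the contrast was not seen against the median of each peak's own class. On that scale cytosolic ribosomal proteins stood at -0.01, splicing factors at -0.02, translation initiation factors at 0.00, the proteasome at 0.06, mitochondrial ribosomal proteins at 0.08 and oxidative phosphorylation at -0.12. Zfp genes stood at 0.09, solute carriers at -0.03, cadherins and their relatives at -0.06 and ion channels at -0.16. With only the strongest peak of each gene, the median of cadherins, contactins and neurexins was 0.58.

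**Figure D5:**
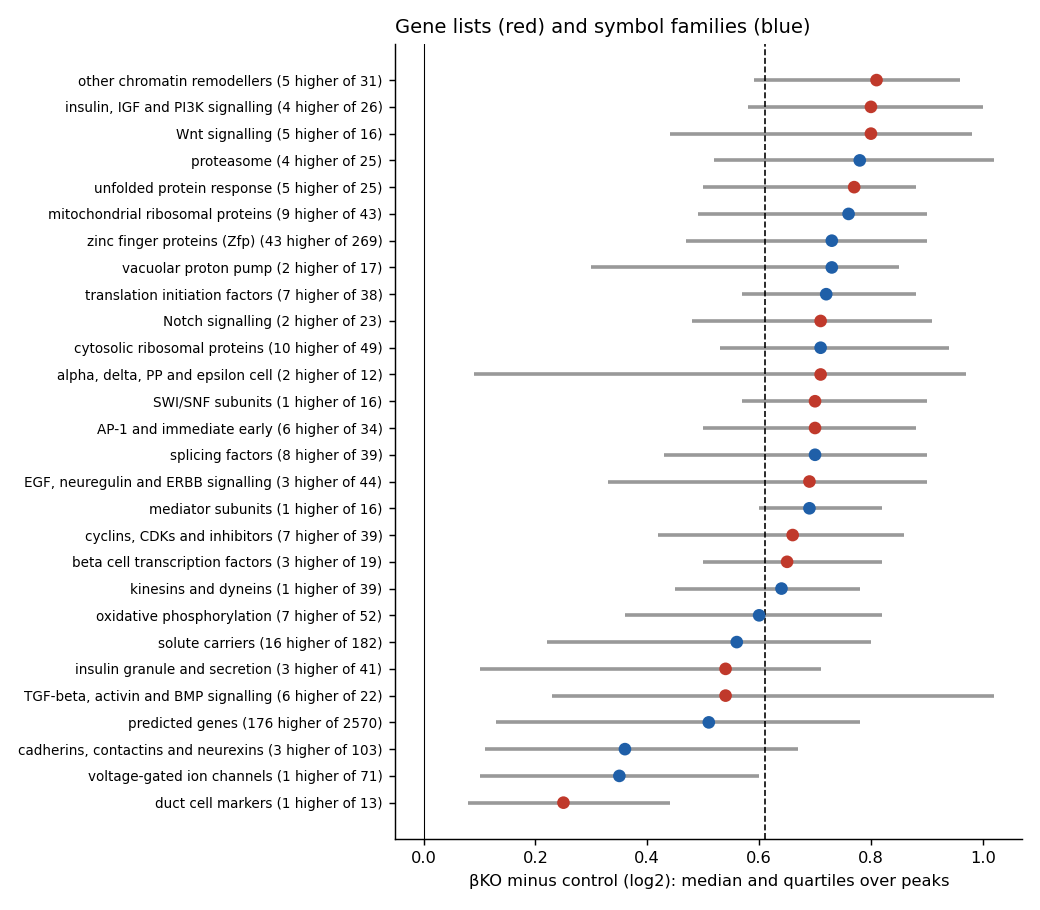
Median (points) and quartiles (lines) of βKO minus control (log2) over the peaks of each gene list (red) and each family of gene symbols (blue) with 10 or more peaks, with the number called higher of the number of peaks; the dashed line is the table median of 0.61. The list of other chromatin remodellers, which also holds histone-modifying enzymes, is at the top with 0.81, and duct markers are at the bottom with 0.25.

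Genes with many peaks had smaller gains. The median difference was 0.68 in the 6031 named genes with 1 peak, 0.59 with 2, 0.54 with 3 and 0.44 in the 224 genes with 4 or more, while the share of promoter peaks fell from 82.6% to 20.8%. Of 7783 named genes, 1106 had a called gain and 14 had 2 or more called peaks. Those 14 included Ak5, Acvr1c and Lmna (a nuclear lamina protein), the last chosen after its values were seen. The most peaks were given to Cntnap2, a neurexin-family adhesion protein, with 11. Their differences ran from -0.39 to 1.09 with a median of 0.49, and none was called. Ptprd, a receptor phosphatase, had 10 with a median of 0.10, and its 2 strongest intron peaks stood at 6.12 and 6.14, and at 5.95 and 6.25. Dgkb, a diacylglycerol kinase, had 9 with a median of 0.84. Dlg2, a synaptic scaffold protein, had 10 with a median of 0.52, and Camk2d, a calmodulin-dependent kinase, had 8 with 0.26. Of these 5 genes only Dgkb had a median above that of the table. No peak of the 5 was called, beside 2.03% of later intron, 3.47% of distal and 9.97% of all peaks. Other genes also had 8 peaks.

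Sequence was examined at 4185 promoter peaks that held the whole RefSeq window from 250 bases before to 50 bases after a start. Gains were slightly larger where the window was richer in G and C. In 5 bins of rising G+C content, equal in number, the median difference was 0.69, 0.71, 0.72, 0.72 and 0.77, and the share called higher was 12.2%, 13.7%, 15.7%, 17.4% and 20.5%. The corresponding values for observed over expected CpG ran from 0.65 to 0.76 and from 10.3% to 18.9%. A GC box (GGGCGG, either strand) was found in 72.4% of these windows and in 35.7% of all RefSeq promoter windows. With it the median was 0.73 and 17.4% were called, and without it 0.69 and 12.0%. Within the 5 bins of G+C content the difference in medians was between 0.01 and 0.05. Windows with the YY1 motif, 1.55% of the peaks, had a lower median, 0.58 against 0.73, with 6.15% called. The E-box CAGATG of NeuroD type, in 9.46% of these windows and 17.2% of all promoters, had 0.67 against 0.73. Medians with and without the AP-1 motif TGANTCA (0.75 and 0.72), the CRE TGACGTCA (0.74 and 0.72), the ETS motif CCGGAAG (0.74 and 0.72) and the NF-Y motif CCAAT (0.72 and 0.73) lay close together. All motifs were searched on both strands, and a match says only that the letters are present.

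The X chromosome had a median difference of 0.72 over 483 peaks, and the autosomes ran from 0.55 on chromosome 19 to 0.66 on chromosome 11. Of the X peaks 337 were promoters within 1 kb. At such promoters the X median, 0.76, lay within the autosomal range, from 0.56 on chromosome 19 to 0.77 on chromosome 18. On chromosome Y the median was 0.13, the difference of the lowest values, and 1 of 76 peaks was called higher, at the promoter of Eif2s3y, a translation initiation factor gene (3.08 and 4.26).

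The same genotypes were compared in other mice before PPx, and the 2 comparisons share no library. A peak of the earlier table overlapped 7504 of the 13111 peaks by at least 1 bp. At these the median difference was 0.00 before and 0.66 after PPx, and at promoters within 1 kb 0.05 and 0.74. Across these peaks Pearson's r was 0.29 and Spearman's rho 0.27, and at promoters both were 0.14. In 5 equal bins of the earlier difference, with medians of -0.56, -0.20, 0.00, 0.19 and 0.44, the later median was 0.46, 0.60, 0.69, 0.73 and 0.74. The share called higher was 8.33%, 11.9%, 17.9%, 19.5% and 20.5%. Peaks of 1 genome share base composition and class, so these are descriptions over peaks, with no test. The 5607 peaks with no earlier overlap had a median of 0.51 and 2.21% called higher, against 15.6% of the rest.

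Side by side, single genes differed in how the 2 times compared. At the Ins1 promoter the difference was 0.96 before and 1.49 after PPx, and at the distal Sst peak it was 0.69 and 1.12. At the Pttg1 promoter it was -0.23 before and 2.18 after, and at that of Psmd1, a proteasome subunit, -1.15 and 1.59. The Hspa5 promoter had 0.00 and 1.05, and the Nkx6-1 promoter -0.25 and 1.06. The tables were normalised separately, and the change between times was not tested here.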

How the data were processed

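ATAC-seq peaks of 4 βKO and 4 control mice after PPx were used, with the table of 3 βKO and 4 control mice before PPx beside them. The tools, listed in the submitters' processing notes without roles, were BWA, cutadapt, MACS, ChIPseeker and DiffBind, on mm10 (GRCm38). Versions, settings and any shift for the Tn5 cut were not given in the sources used here. Per the file headers, the deposited values are log2 concentrations per group and a log2 fold. The authors' deposited tables also give, per peak, a p-value, an FDR and the number of libraries in which it was called. Library depth and single-library values were not analysed here; no library could be left out and no spread between mice was computed.

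The 18392 rows gave 13111 positions. A peak was called at an FDR under 0.05 in the authors' deposited table. A standard error was derived from difference and p-value, or taken as the median of peaks of like concentration in 20 bins where p was 0.5 or more or the difference was under 0.1. The approximate normal test against the table median used it, with Benjamini-Hochberg adjustment. The test was run on simulated data with normal noise of the binned standard errors, which cannot show whether those errors are right. Genes were named by rule: the Arid1a peaks, the 5 smallest FDRs, the 2 largest called gains per class, all called losses, the 10 strongest peaks, up to 3 called peaks and the lowest peak per list, the 5 genes with most peaks and 3 promoters near the median; others were added to show members of a pathway. Peaks, 20 gene lists, 14 symbol families and the motifs were chosen with earlier results of these data known. Promoter sequences and starts came from RefSeq (GRCm38.p6). Python 3.11.15, pandas 2.3.3, numpy 2.4.6, scipy 1.17.1 and matplotlib 3.10.9 were used. Some results that the rule would name are not reported here.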

Additional observations from a re-analysis of the deposited data

How the results depend on the processing

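The count of called gains (1296) was 3 at an FDR under 0.01 and 3358 at an FDR under 0.10 in the authors' deposited table, and 541 with a Benjamini-Hochberg adjustment over all deposited p-values, of which 497 were among the 1296. The count of called losses (11) was 0 and 33 at these FDRs in the authors' deposited table, 7 among peaks at or above the median concentration, 2 without predicted genes and 5 among peaks called in 2 or more libraries of each genotype. At an unadjusted p under 0.05 in the authors' deposited table there were 4331 gains and 69 losses, and the Benjamini-Hochberg adjustment at 0.01 gave 0 losses. The median difference (0.61) was -0.16 when centred on the 1000 strongest peaks and 0.48 relative to the lowest values, the latter added after seeing the data; under the other subsets tried it lay between 0.62 and 0.70. Relative to the table median, the class medians were 0.11 (promoters within 1 kb), -0.12 (1 to 2 kb), -0.15 (2 to 3 kb), -0.22 (other exons), -0.23 (intron 1), -0.24 (other introns) and -0.22 (distal), and promoters at 2 to 3 kb reached 0.57 among peaks at or above the median concentration. In the same order of classes, the share called at an FDR under 0.10 in the authors' deposited table was 38.0%, 15.5%, 15.5%, 11.3%, 7.31%, 7.06% and 8.69%. With the Benjamini-Hochberg adjustment it was 6.10% at promoters within 1 kb, 1.47% in other exons, 0.685% in intron 1, 0.974% in other introns and 1.52% at distal peaks. Among peaks called in 2 or more libraries of each genotype it was 20.5% within 1 kb, 8.57% at 1 to 2 kb and 6.31% at distal peaks. Peaks lower than the table median numbered 77 when the centre was the promoter median and 88 when it was the median of the 1000 strongest peaks, and peaks higher numbered 5 with the pooled standard error. Of 97 named called peaks, 13 also stood apart from the table median and 84 did not, with the same sign in all 97. Medians of 5 of 34 lists or families moved by over 0.1 with 1 peak per gene. Leaving out single libraries was planned and not run, since only group values were used. No paired analysis was possible because the libraries of the groups share no replicate number. The depth of each library is unknown, and the authors' test gave an FDR of 1 to nearly all peaks in the weakest 3 of 10 bins of concentration, so the authors' calls there say little.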
